A study of Mus musculus with 39 samples.

Results

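Myelinating Schwann cells are represented here by 8 genes, Pmp22, Mbp, Prx, Mag, Egr2, Cldn19, Pllp and Drp2. They were taken by symbol from the 22609 genes counted in each library, and all 8 were present. Each level is given in CPM, the gene's reads scaled to a common total of gene reads per library. The tissues came from C57 mice labelled WT and aged 8 to 12 weeks. They were punch biopsies of hind paw skin and dorsal root ganglia (DRG) of levels L3 to L5, the clusters of sensory neuron cell bodies beside the spinal cord. Paclitaxel, a cancer drug that binds microtubules and is known to damage sensory nerves, was injected into the abdomen at 3 mg/kg on 2 occasions a day apart, by the protocol given for every sample. The titles of the male samples carry the letters LC, which those of the females lack and the labels do not explain. Ganglia of both sexes were taken 2 and 6 days after the last injection. Female paw skin was taken on days 2, 6, 16 and 26, and male paw skin on days 2, 6 and 15. The controls of both tissues were females sampled 1 day after vehicle injection, so males were also set against vehicle females; vehicle males were not analysed here. Each of the 13 groups held 3 libraries, and the labels do not state whether each is a different mouse. The p-values therefore reflect the scatter among these libraries, which may be technical.

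The myelinating Schwann cell wraps a single axon in a compacted spiral of its own membrane. The transcription factor EGR2 (Krox20), acting with SOX10, switches on genes of the sheath and is needed to keep it. PMP22 and MBP belong to compact myelin, MAG lies in the membrane facing the axon, claudin 19 seals the non-compact loops, plasmolipin (Pllp) is a small membrane protein of myelin, and periaxin (Prx) and DRP2 form a complex with dystroglycan at the outer surface. Mutations of PMP22, EGR2 and PRX cause inherited neuropathies in people. DRG hold stretches of myelinated axon among the neuron bodies, while skin holds mainly the thin ends of nerves.

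The libraries held 16781618 to 26136854 gene reads. Ambiguous reads, which fit more than 1 gene, were 0.21% to 0.30% of those uniquely placed in 18 libraries, all from paclitaxel females. In the remaining 21 they were 0.54% to 0.75%. A contrast of paclitaxel females with vehicle therefore crosses between 2 kinds of library, and treatment and library set cannot be told apart there, whereas all males and the vehicle females lie within one set. The 8 genes took 1.5% to 2.06% of gene reads in DRG and 0.0284% to 0.0827% in paw. Keratinocyte markers, which belong to skin, were low in DRG but differed with the set: their mean level over 12 genes was 1.66 to 1.83 log2 CPM in vehicle and 3.30 to 3.71 in paclitaxel females, against 1.59 to 2.20 in males. Skeletal muscle markers ranged from 2.48 to 9.20 log2 CPM over the 15 DRG libraries, highest in replicate 3 of female day 2. The part of either tissue in the results was not tested, except that the muscle level was tried as a covariate.

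Promoter windows are shown for 4 of the 6 genes whose male DRG libraries on day 6 all lay below those of day 2, the pattern that most of the 8 genes shared. Each window runs from 250 bases before to 50 bases after a RefSeq start (build GRCm38.p6), and the first listed window of each gene is printed in its own direction of transcription. Capitals mark matches on either strand to GTGGGCG, the core that EGR factors bind, or to ACAANG, a core of SOX sites. The matches printed do not overlap one another.
Prx, chr7:27499074-27499373, plus strand: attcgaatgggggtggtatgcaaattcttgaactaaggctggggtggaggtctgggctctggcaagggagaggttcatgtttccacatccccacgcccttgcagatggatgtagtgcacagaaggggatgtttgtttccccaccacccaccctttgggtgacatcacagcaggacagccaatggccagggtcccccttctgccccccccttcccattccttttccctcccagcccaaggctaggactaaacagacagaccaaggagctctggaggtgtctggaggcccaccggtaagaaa
Mag, chr7:30914814-30915113, minus strand: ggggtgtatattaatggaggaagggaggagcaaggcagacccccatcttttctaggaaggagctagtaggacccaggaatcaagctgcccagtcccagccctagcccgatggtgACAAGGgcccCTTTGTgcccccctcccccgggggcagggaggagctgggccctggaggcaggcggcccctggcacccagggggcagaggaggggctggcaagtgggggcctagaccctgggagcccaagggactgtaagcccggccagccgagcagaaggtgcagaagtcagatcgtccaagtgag
Cldn19, chr4:119255191-119255490, plus strand: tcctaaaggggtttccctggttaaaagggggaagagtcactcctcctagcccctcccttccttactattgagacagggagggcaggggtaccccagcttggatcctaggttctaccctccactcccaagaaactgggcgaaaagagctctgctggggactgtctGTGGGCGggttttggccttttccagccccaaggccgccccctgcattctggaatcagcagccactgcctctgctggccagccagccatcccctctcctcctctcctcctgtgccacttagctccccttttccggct
Pllp, chr8:94696193-94696492, minus strand: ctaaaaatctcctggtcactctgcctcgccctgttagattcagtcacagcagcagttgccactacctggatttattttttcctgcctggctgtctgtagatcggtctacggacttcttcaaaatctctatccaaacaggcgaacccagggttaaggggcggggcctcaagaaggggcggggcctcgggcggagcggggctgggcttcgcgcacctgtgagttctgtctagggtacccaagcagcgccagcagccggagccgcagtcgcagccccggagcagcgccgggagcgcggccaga
The Mag window held 2 SOX matches, 1 on each strand, the Cldn19 window held 1 EGR match, and those of Prx and Pllp held neither. The windows used numbered 16, for 6 of the 8 genes. None of Mbp or Drp2 was used, and the selection left out every window on 1 chromosome. Of the 16, 3 held the EGR core and 5 the SOX core, and some of these windows overlap. Of all 32851 windows of 300 bases, 7.97% held the EGR core and 41.2% the SOX core. The absence of a match says only that these letters are not in the window.

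In female DRG on day 2, Drp2, Egr2, Pmp22 and Mbp were lower than in vehicle and Prx and Mag were higher, while Cldn19 and Pllp did not pass the test. These 6 of 8 stand beside 49.8% of all 15577 genes tested (25.8% up and 24% down), at a Benjamini-Hochberg adjusted p under 0.05 in edgeR's quasi-likelihood test. The libraries of 4 of the 8 did not overlap with vehicle, beside 56.2% of all genes. On day 6 the same contrast called 5 of 8, Drp2, Egr2, Pmp22 and Mbp down and Prx up, beside 41.5% of all genes (23.2% up and 18.3% down). There 5 of the 8 did not overlap, beside 52.6%. In males neither day gave a call against vehicle females, beside 0.315% of genes on day 2 and 1.79% on day 6. Both female contrasts use the same vehicle libraries, as do those of males. In whole tissue, fewer cells of a type and less RNA per cell cannot be told apart.

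Egr2, the regulator, gave 118, 121 and 118 CPM in the 3 vehicle libraries. Females gave 62.2, 57.3 and 81.2 CPM on day 2 and 60.8, 67.2 and 63.6 on day 6, so both female groups lay wholly below vehicle. Males spread far more, with 105, 68.6 and 111 CPM on day 2 and 124, 89.7 and 68.8 on day 6. Egr2 fell in females by 0.83 ± 0.20 log2 (SE, adjusted p = 0.00317) on day 2 and by 0.87 ± 0.20 (adjusted p = 0.00261) on day 6. In males the differences from vehicle were -0.28 ± 0.19 (adjusted p = 0.722) and -0.30 ± 0.19 (adjusted p = 0.426).

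Pmp22, a protein of compact myelin whose dose is critical in people, gave 6590, 5909 and 5553 CPM in vehicle, 4642, 5308 and 4525 in females on day 2 and 4826, 5222 and 4448 on day 6. All 6 female libraries lay below all 3 of vehicle. It fell by 0.31 ± 0.08 log2 (adjusted p = 0.00363) and by 0.29 ± 0.08 (adjusted p = 0.00743). Mbp, which glues the inner faces of the membrane together, gave 7841, 8335 and 7553 CPM in vehicle, 6572, 7629 and 6374 on day 2, and 6647, 6840 and 6293 on day 6. Only on day 6 did its libraries lie wholly below vehicle. It fell by 0.20 ± 0.07 (adjusted p = 0.0248) on day 2 and by 0.23 ± 0.07 (adjusted p = 0.0134) on day 6. The day 2 call of Mbp was lost without replicate 2 of vehicle or without replicate 1 or 3 of female day 2 (-0.16, -0.16 and -0.15, adjusted p = 0.104, 0.0953 and 0.109), and 5 of 12 alternatives ended it.

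Periaxin and DRP2, partners at the outer surface of the sheath, went opposite ways in females. Prx gave 2321, 2552 and 2122 CPM in vehicle, 2768, 2895 and 2624 in females on day 2 and 2686, 2542 and 2528 on day 6. It rose by 0.25 ± 0.07 log2 (adjusted p = 0.00693) on day 2, with no overlap, and by 0.18 ± 0.07 (adjusted p = 0.0458) on day 6, with overlap. Drp2 gave 1718, 2167 and 1980 CPM in vehicle, 926, 1006 and 1121 on day 2 and 1453, 1484 and 995 on day 6. Its female libraries all lay below vehicle, and it fell by 0.93 ± 0.14 (adjusted p = 0.000101) and by 0.55 ± 0.14 (adjusted p = 0.00655). The day 6 call of Prx was lost without any 1 of 5 of the 6 libraries compared, all but replicate 2 of vehicle, with adjusted p up to 0.27, and under 9 of 12 alternatives in all. Between females of day 6 and day 2, Drp2 differed by 0.39 ± 0.14 (adjusted p = 0.268), and it was called without replicate 3 of female day 6 (0.56, adjusted p = 0.0124). The share of all genes called without that library is not given here.

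Ratios of reads between members, 5 in all, were examined after these values were seen and are a description with no test. That of Prx to Drp2 was the only one of the 5 to separate the library sets in both tissues. Mag over Pmp22 separated them in DRG and overlapped in paw, and Mbp over Pmp22, Cldn19 over Pllp and Egr2 over Mbp overlapped in both. Over DRG libraries Prx to Drp2 was 1.07 to 1.51 in vehicle and males and 1.71 to 2.99 in paclitaxel females. In paw it was 1.25 to 1.47 and 1.98 to 2.83. In neither tissue did the ranges of the 2 library sets overlap, and the females of days 16 and 26 were still apart, at 2.11 to 2.24 and 2.28 to 2.58. The ratio does not depend on a library's depth or scaling, and treatment and library set cannot be told apart in it. How many other pairs of genes separate the sets was not examined. In female DRG on day 2, 49.8% of all genes were called against vehicle, so the separation is not shown to be particular to this pair. The authors' counting rule for strand was not given in the sources used here, and an antisense gene absent from the count table, Gm15541, shares 300 exon bases with Prx on the opposite strand (GENCODE M21).

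**Figure D1:**
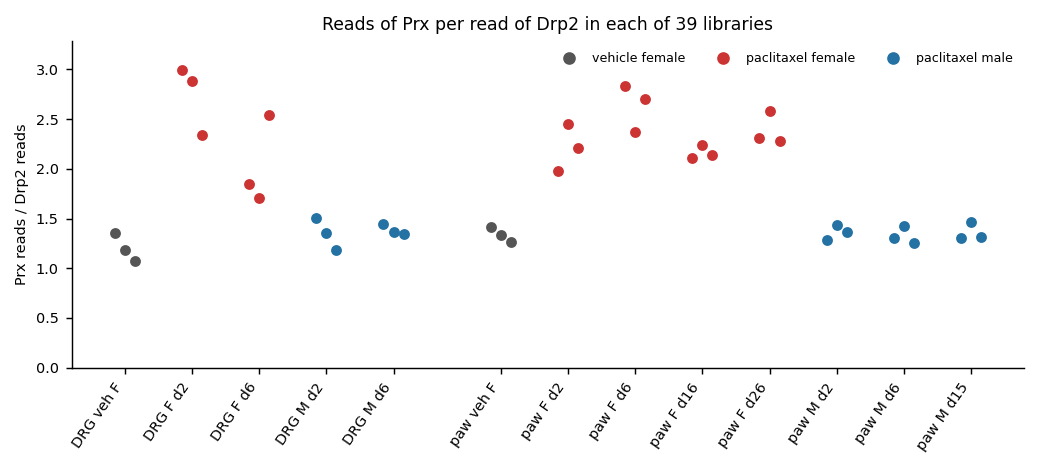
Reads of Prx per read of Drp2 in each of 39 libraries, by tissue, sex and day (veh F, vehicle female; d, days after the last injection). Each point is 1 library. The 18 libraries of paclitaxel females lie between 1.71 and 2.99, above the other 21, which lie between 1.07 and 1.51. How many other pairs of genes separate these libraries was not examined.

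Cldn19 and Pllp were not called in females on either day. Cldn19, the claudin of the non-compact loops, gave 433, 421 and 369 CPM in vehicle, 396, 442 and 351 in females on day 2 and 382, 376 and 339 on day 6. Pllp, the membrane protein plasmolipin, gave 215, 215 and 202 CPM in vehicle, 204, 216 and 182 on day 2 and 208, 212 and 190 on day 6. For both genes the female and vehicle ranges overlapped on both days, and the log2 differences lay between -0.13 and -0.02. Opposite-strand genes absent from the count table share 90 exon bases with Cldn19 (Gm12927) and 1128 with Pllp (Gm45767).

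Mag, the adhesion molecule facing the axon, gave 124, 133 and 132 CPM in vehicle, 156, 193 and 128 in females on day 2 and 149, 151 and 143 on day 6. The highest, replicate 2 of female day 2, was also the library that held markers of oligodendrocytes, the myelinating cells of the brain and spinal cord, which make Mag too. Their 7 measured markers summed to 62.9 CPM there and to 1.19 to 7.24 CPM in the other 14 DRG libraries. Of the markers that define these cells, Mog had 126 reads there against 0 to 9 in the others, Opalin 31 against 0 to 4 and Mobp 1005 against 1 to 84. None of the 7 were at 0 in that library, and 0 to 5 were in the others. Among females of day 2 that library was also the highest for Mbp, Pmp22, Prx, Cldn19 and Pllp. The part of oligodendrocytes in any of these levels was not tested. Mag rose by 0.29 ± 0.10 log2 on day 2 (adjusted p = 0.0297). Without that library the difference was 0.14 (adjusted p = 0.147), and without replicate 1 of vehicle 0.26 (adjusted p = 0.093), so the call rests on them. On day 6, Mag stood 0.21 ± 0.10 above vehicle with no overlap and did not pass (adjusted p = 0.118).

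**Figure D2:**
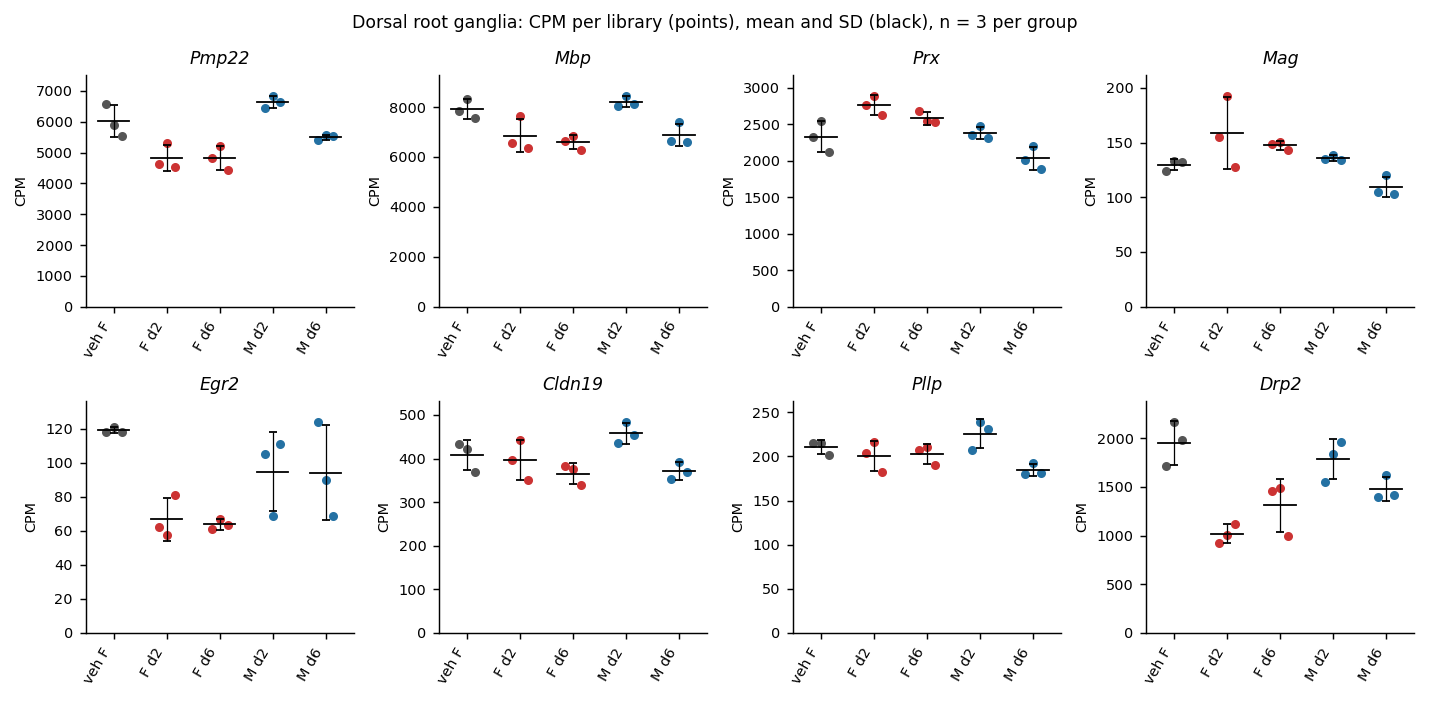
CPM of the 8 genes in the 15 DRG libraries, 1 panel a gene, by group on the horizontal axis. Points are libraries, black lines are the mean and SD of 3, and every vertical axis starts at 0. Egr2 and Drp2 are lower in all paclitaxel females than in vehicle, and male day 6 lies below male day 2 for most genes.

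Males of day 6 stood below males of day 2 for 7 of the 8 genes, by 0.24 to 0.33 log2, while Egr2 differed by -0.02 ± 0.19. Both groups belong to the same library set. For Pmp22, Mbp, Prx, Mag, Cldn19 and Pllp all day 6 libraries lay below all of day 2, where 14.3% of all genes did not overlap in either direction and 6.94% lay lower on day 6. edgeR called none of the 8 and none of the 15577 genes (0%), of which 920 had an unadjusted p under 0.05, 6 of the 8 among them and all lower on day 6. DESeq2 called 23 genes, including Pllp (adjusted p = 0.021), Mbp (0.0431), Pmp22 (0.0483) and Cldn19 (0.0483), all lower.

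Pllp gave 207, 239 and 231 CPM in males on day 2 and 180, 193 and 181 on day 6, a difference of -0.30 ± 0.07 log2 (edgeR adjusted p = 0.626). Cldn19 gave 435, 484 and 455 CPM on day 2 and 352, 392 and 370 on day 6 (-0.31 ± 0.08). Mag gave 135, 139 and 134 CPM, then 105, 120 and 103 (-0.33 ± 0.10). None of these 3 genes overlapped between the days, yet the smallest adjusted p among the 8 genes in edgeR was 0.626. Mbp gave 8055, 8458 and 8133 CPM on day 2 and 6652, 7386 and 6616 on day 6 (-0.27 ± 0.07). Pmp22 gave 6443, 6848 and 6648 CPM, then 5406, 5565 and 5523 (-0.28 ± 0.08). Prx gave 2351, 2479 and 2317 CPM, then 2013, 2208 and 1895 (-0.24 ± 0.07). All 3 lay wholly lower on day 6. Drp2 overlapped, with 1555, 1835 and 1956 CPM on day 2 and 1399, 1623 and 1412 on day 6 (-0.28 ± 0.14).

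Against vehicle females no gene of the 8 was called in males. Their median difference was 0.11 log2 on day 2 and -0.16 on day 6, beside 0.02 and 0.01 over all genes. Markers of other cells moved in the same contrasts. On day 6, beside 1.79% of all genes called, 5 of 12 neuron markers rose (median 0.24). There 1 of 10 fibroblast and 2 of 9 macrophage markers fell (medians -0.52 and -0.53). On day 2, beside 0.315%, 1 neuron marker rose and 1 marker each of fibroblasts and macrophages fell (medians 0.17, -0.35 and -0.46). Their part was not tested. The libraries of 3 of the 8 did not overlap with vehicle on day 2, Cldn19 and Mag higher and Egr2 lower, beside 17.6% of all genes. On day 6, 4 of the 8, Drp2, Mag, Mbp and Pllp, lay wholly lower, beside 27.4% that did not overlap in either direction and 17.9% that lay lower. Drp2 stood at -0.36 ± 0.14 (adjusted p = 0.18). It was called at -0.38 when only the 2 compared groups entered the fit (adjusted p = 0.0291). The share of all genes called in that fit is not given here.

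The test of the difference between the sexes in this step called none. Apart from Drp2, the female differences between day 6 and day 2 lay between -0.09 and 0.04, none of the 8 was called, and 0.18% of all genes were. The male change less the female one was -0.67 ± 0.20 log2 for Drp2, -0.34 ± 0.10 for Pllp, -0.31 ± 0.11 for Pmp22 and -0.23 ± 0.10 for Mbp (adjusted p = 0.439, 0.439, 0.439 and 0.467). edgeR called no gene in this contrast (0%), with 1536 at an unadjusted p under 0.05, and DESeq2 called 23 genes, none of them among the 8. Without replicate 3 of female day 6, edgeR called Drp2 (-0.84, adjusted p = 0.0203) and Pllp (-0.39, adjusted p = 0.043). The 0% is edgeR's share with all libraries, and the share of all genes called without that library is not given here.

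Males and females of the same day were also set against each other, contrasts added after the data were seen. On day 2, 6 of the 8 genes were called in DRG, all higher in males, beside 48.9% of all genes, and on day 6, 3 were called, Egr2 higher and Prx and Mag lower in males, beside 39.9%. In paw 3 were called on day 2, beside 31.2%, and Egr2 alone on day 6, beside 37.3%. Males and females differ in library set as well.

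**Figure D3:**
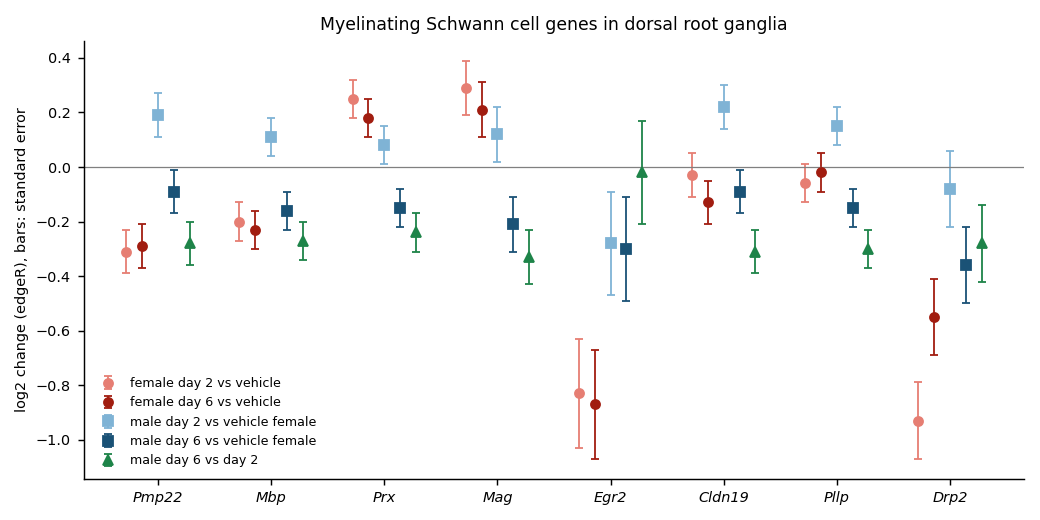
Log2 change of each of the 8 genes in DRG, from edgeR, in 5 contrasts. Points are the estimates, bars the standard error, and the grey line marks no difference. The green triangles, male day 6 against day 2, lie between -0.33 and -0.24 for 7 genes and at -0.02 for Egr2, and the females of both days are lowest for Egr2 and Drp2.

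Other genes of myelin stood lower in males on day 6 too, with none called. The median difference from male day 2 was -0.28 log2 over the 8 genes, -0.22 over 17 other genes of the sheath, -0.24 over 7 genes of myelin lipids and -0.12 over 14 regulators of myelination. It was -0.04 over 10 markers of satellite glia, the cells around neuron bodies, -0.01 over 15 genes of immature, non-myelinating and repair Schwann cells, and 0.07 over 12 neuron markers, beside -0.00 over all genes. Neuron markers averaged 10.32 to 10.36 log2 CPM on day 2 and 10.41 to 10.44 on day 6, and keratinocyte markers 1.59 to 1.72 and 1.87 to 2.20. Oligodendrocyte markers summed to 2.87, 7.24 and 3.57 CPM on day 2 and to 1.91, 2.59 and 2.32 on day 6. Fibroblast markers differed by a median of -0.23 log2, about as much as the myelin lists, and their mean level over 10 genes was 7.56 to 7.62 log2 CPM on day 2 and 7.33 to 7.44 on day 6, with no overlap. Skeletal muscle markers differed by a median of -1.59, with overlapping levels of 2.48 to 6.52 and 3.6 to 5.4. Medians were 0.59 for keratinocyte, -0.08 for macrophage and -0.07 for endothelial markers. The part of these in the difference was not tested.

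Of 17 other genes of the sheath, 3 rose and 6 fell in females on day 2, a share near the 49.8% of all genes called there, with a median of -0.07 log2 beside -0.00 over all genes. Dag1, which encodes dystroglycan, the receptor that ties DRP2 to the basal lamina, fell by 0.79 ± 0.09 (adjusted p = 6.95e-06), and Utrn, encoding its partner utrophin, by 0.73 ± 0.13 (adjusted p = 0.000287). Dmd, encoding dystrophin and named after its values were seen, fell by 0.67 ± 0.13 (adjusted p = 0.000785). Gldn, encoding gliomedin, which gathers sodium channels at nodes, fell by 0.81 ± 0.12, while Cadm4, an adhesion molecule of the internode, rose by 0.77 ± 0.09 (adjusted p = 6.27e-05 and 8.12e-06). On day 6, 3 rose and 6 fell, beside 41.5% of all genes, among them Dag1 (-0.73 ± 0.09), Gldn (-0.74 ± 0.12) and Cadm4 (0.68 ± 0.09).

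In males, which share the vehicle's library set, none of these 17 passed on day 2, beside 0.315% of all genes. On day 6, beside 1.79%, 1 fell, Cnp, an enzyme of the non-compact channels of myelin (-0.30 ± 0.07, adjusted p = 0.0373). Of 7 lipid genes, 2 rose and 2 fell in females on day 2, beside 49.8% of all genes. Scd1, a fatty acid desaturase, fell by 0.50 ± 0.09, Fa2h, which hydroxylates myelin lipids, fell by 0.35 ± 0.08, and Hsd17b12, of fatty acid elongation, rose by 0.31 ± 0.06 (adjusted p = 0.00032, 0.00224 and 0.00073). No lipid gene was called in males against vehicle.

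Of 14 regulators, 2 rose and 5 fell in females on day 2, a share near the 49.8% of all genes called. Pou3f1 (Oct6), which in mice precedes Egr2 in the Schwann cell lineage, rose by 0.97 ± 0.13 (adjusted p = 2.42e-05). Nrg1, the axonal growth factor that sets myelin thickness, fell by 1.11 ± 0.13 (adjusted p = 9.34e-06), and Zeb2, a transcription factor needed for myelination, by 0.92 ± 0.15 (adjusted p = 0.000142). On day 6, 1 rose and 5 fell, beside 41.5%. In males none was called on day 2 and on day 6 Lgi4, a secreted signal for Schwann cell myelination, fell by 0.27 ± 0.06 (adjusted p = 0.0421). Of 15 tested genes of immature, non-myelinating and repair Schwann cells, 6 rose and 6 fell in females on day 2, beside 49.8% of all genes, and 2 rose in males on both days, beside 0.315% and 1.79%. Those 2 were Ngfr, the low-affinity neurotrophin receptor (0.38 ± 0.05 and 0.37 ± 0.05), and Gap43, a growth-associated protein that neurons also make (0.33 ± 0.06 and 0.34 ± 0.06).

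In paw skin the 8 genes were read at a small share of their DRG level. In vehicle, 7 of them stood at 1.91% to 3.7% of their own mean CPM in DRG, and Egr2 stood apart at 18%, since it gave 21.5 ± 4.24 CPM (SD, n = 3) in paw and 119 ± 1.67 in DRG. In paclitaxel-treated groups with both tissues, Egr2 was at 19.9% to 33.2%, and the other 7 at 1.26% to 5.24%. Which cells of the skin made the Egr2 reads was not tested. Mag was the thinnest measurement, with 26 to 83 reads a paw library.

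Within paw groups, biopsies with little skeletal muscle often held the least of these genes. The muscle level, a mean over 15 genes, ranged from 2.20 to 11.24 log2 CPM. In each of 8 groups the library with the least muscle was found, and it was also the lowest of the 3 for Mag, Cldn19 and Drp2 in 7 groups, for Pmp22 and Pllp in 6, for Mbp and Prx in 5 and for Egr2 in 2. The library with the most muscle was the highest of the 3 in 6 groups for Pmp22, in 5 for Mbp, Prx and Cldn19, in 4 for Mag, Pllp and Drp2 and in 2 for Egr2. Vehicle shows it: replicates 1, 2 and 3 had muscle levels of 9.89, 2.20 and 8.70, Drp2 at 44.4, 25.9 and 45.5 CPM and Egr2 at 17.2, 21.5 and 25.7 CPM. How many of all genes followed the same order was not examined. No other marker list was used to order the libraries, so the order is not shown to be particular to muscle. Neuron markers were higher in paclitaxel females, at 1.76 to 2.18 log2 CPM against 1.14 to 1.66 in vehicle and males. Their part was not tested.

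**Figure D4:**
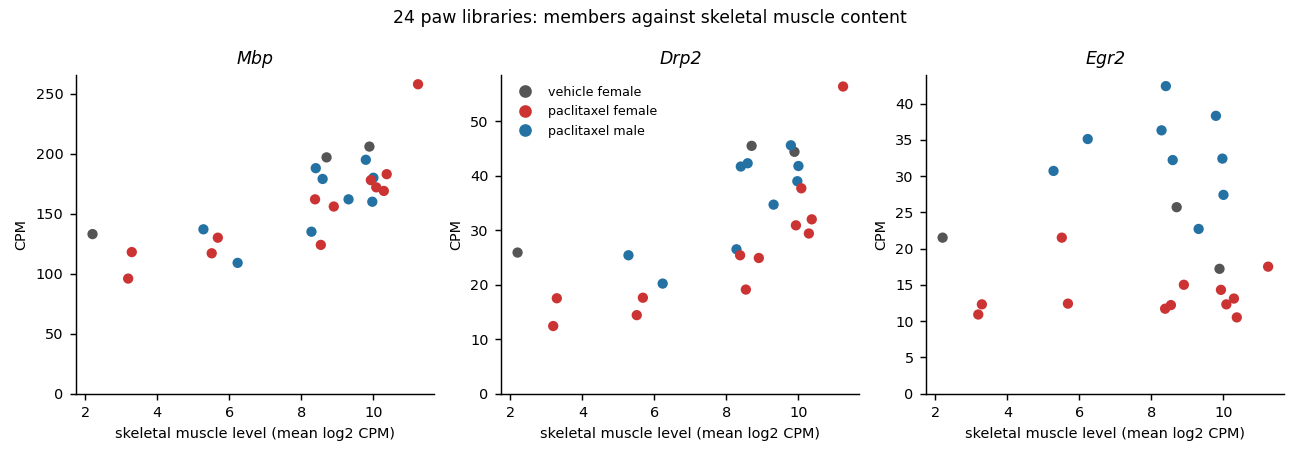
CPM of Mbp, Drp2 and Egr2 in the 24 paw libraries against the mean log2 CPM of 15 skeletal muscle genes in the same library. Each point is 1 library, coloured by treatment and sex. The Mbp and Drp2 points lie higher at higher muscle levels, and the Egr2 points of males, at 22.7 to 42.4 CPM, lie above those of paclitaxel females, at 10.5 to 21.5, with vehicle females at 17.2 to 25.7, overlapping both.

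Against vehicle, the paw calls were few. On day 2 in females 1 of 8 genes was called, beside 29% of 15346 genes tested. That was Prx, at 62.5, 34.5 and 57.1 CPM in vehicle and 74.7, 62.2 and 125 on day 2. None of the 8 separated from vehicle, beside 39.6% of all genes that did not overlap. Prx rose by 0.85 ± 0.31 log2 (adjusted p = 0.0474). In the same contrast 8 of 10 fibroblast markers rose, from 7.08 to 7.67 log2 CPM in vehicle to 7.98 to 8.56, and 7 of 10 neuron markers; their part was not tested. The day 2 and vehicle replicates of the same number deviated together, and with the number as a block Prx was no longer called (0.84, adjusted p = 0.0568) and Egr2 was, at -0.55 (adjusted p = 0.0247). The share of all genes called with the block is not given here. With the muscle level as a covariate Prx stood at 0.49 (adjusted p = 0.104), without replicate 3 of female day 2, the library with the most muscle, at 0.50 (adjusted p = 0.295), and without replicate 2 or 3 of vehicle at 0.65 and 0.91 (adjusted p = 0.194 and 0.0816). In all, 8 of 12 alternatives ended the call.

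On day 6 in females Drp2 and Egr2 fell, 2 of 8 beside 29.5% of all genes. With Cldn19 they were the 3 of 8 that did not overlap with vehicle, beside 45.3%. Drp2 gave 12.4, 24.9 and 17.5 CPM, all below vehicle, a change of -0.94 ± 0.34 log2 (adjusted p = 0.046). Egr2 gave 10.9, 15 and 12.3 CPM, below all of vehicle, and changed by -0.62 ± 0.23 (adjusted p = 0.0453). Replicates 1 and 3 had little muscle, at 3.19 and 3.29, against 8.90 in replicate 2. Each call was lost when any of 4 of the 6 libraries was left out, at adjusted p up to 0.197: replicates 1 and 3 of female day 6 and replicate 3 of vehicle for both, with replicate 1 of vehicle for Drp2 and replicate 2 for Egr2. Both missed the threshold without the low-count filter (adjusted p = 0.0524 and 0.054). With the muscle level as a covariate both were called.

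None of the 8 was called in females on day 16, beside 21.7% of all genes, and Egr2 alone on day 26, beside 20.4%. It was also the 1 gene of the 8 that did not overlap on day 26, beside 41.1%. Egr2 gave 12.2, 12.4 and 10.5 CPM on day 26, all below vehicle, and fell by 0.77 ± 0.23 log2 (adjusted p = 0.0203). Leaving out replicate 2 or 3 of vehicle, or 1 or 3 of day 26, ended that call (adjusted p = 0.0523, 0.0995, 0.0509 and 0.0808). With the muscle level as a covariate, Drp2 and Pmp22 were called as well, at -0.80 and -0.48 on day 16 and at -0.84 and -0.57 on day 26. Without it Drp2 stood at -0.54 ± 0.34 and -0.65 ± 0.34, from 29.4, 30.9 and 14.4 CPM on day 16 and 19.1, 17.6 and 32 on day 26. The shares of all genes called with the covariate are not given here.

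In male paw none of the 8 was called against vehicle females on day 2 or 6, beside 5.95% and 5.97% of all genes. On day 15 Egr2 was called, beside 4.4%, at 32.4, 42.4 and 38.3 CPM, all above vehicle, a rise of 0.87 ± 0.23 log2 (adjusted p = 0.0353). Each of the 6 libraries left out in turn ended that call, at 0.71 to 1.01 with adjusted p from 0.0565 to 0.115. It was the 1 of 8 that did not overlap, beside 33.2%. On day 2, Egr2 and Pllp did not overlap with vehicle, 2 of 8 beside 30.5%. There Egr2 gave 27.4, 30.7 and 36.3 CPM, above all of vehicle, with a difference of 0.62 ± 0.22 (adjusted p = 0.104). On day 6 it gave 22.7, 35.1 and 32.2 CPM, overlapping vehicle (0.54 ± 0.22, adjusted p = 0.162). Egr2 thus lay below vehicle in the called female contrasts and above it in the called male one, and in the male one, which lies within one library set, sex cannot be told apart from treatment. Fibroblast markers, a mean over 10 genes, stood at 7.08 to 7.67 log2 CPM in vehicle paw, 8.73 to 9.20 in males on day 2, 8.63 to 8.89 on day 6 and 8.62 to 8.79 on day 15, with 9, 6 and 5 of the 10 called higher. Macrophage markers stood at 3.85 to 4.67 in vehicle and 4.84 to 5.81 over the males. Neither list overlapped between males and vehicle, and their part in the Egr2 difference was not tested.

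**Figure D5:**
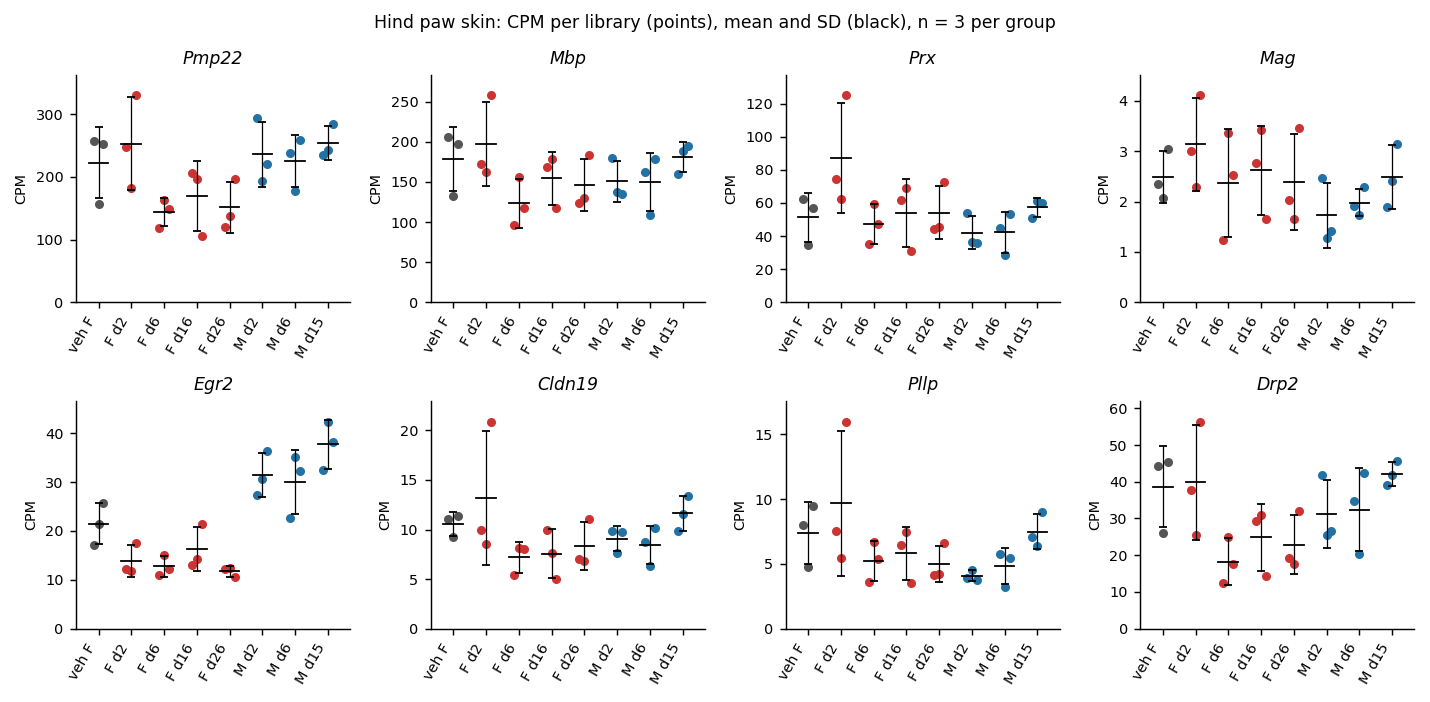
CPM of the 8 genes in the 24 paw libraries, 1 panel a gene, by group on the horizontal axis. Points are libraries, black lines the mean and SD of 3, and every vertical axis starts at 0. The libraries of a group scatter widely for most genes, and Egr2 is lower in every paclitaxel female library than in every male one (10.5 to 21.5 against 22.7 to 42.4 CPM).

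From day to day in paw no call was made among the 8 genes. Females of day 6 lay below those of day 2 with no overlap for Mbp, Pmp22, Cldn19, Prx and Drp2, where 21.9% of all genes did not overlap in either direction and 11% lay lower. These 5 differed by -0.63 to -1.07 log2, and the smallest adjusted p were 0.0879 for Drp2 (-1.07 ± 0.34) and 0.0896 for Pmp22 (-0.77 ± 0.25), while 0.873% of all genes were called. DESeq2 called Drp2 and Pmp22, at adjusted p = 0.027 and 0.033. Without replicate 2 of female day 2, edgeR called Drp2, Pmp22 and Cldn19 (-1.28, -0.93 and -1.02). The 0.873% is edgeR's share with all libraries, and the shares of all genes under these alternatives are not given here. Muscle was also lower on day 6, at 3.19 to 8.90 against 8.38 to 11.24, and its part was not tested beyond the covariate, with which none of the 8 was called.

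Later female days against day 2 gave no call among the 8 either, beside 1.48% of genes for day 16 and 0% for day 26. For day 26, 1905 genes had an unadjusted p under 0.05, 5 of the 8 among them and all lower, and DESeq2 called 254. In male paw, days 6 and 15 against day 2 gave 0% in edgeR, with 345 and 629 genes at an unadjusted p under 0.05, and DESeq2 called 1 and 2. Pllp, at 3.92, 4.56 and 3.76 CPM on day 2 and 7.06, 6.41 and 9 on day 15, was the only one of the 8 with an unadjusted p under 0.05 (0.85 ± 0.36 log2, adjusted p = 1). The male change from day 2 to day 6 less the female one gave no called gene (0%), with 1488 at an unadjusted p under 0.05 and 18 in DESeq2, and ranged from -0.01 for Egr2 to 1.12 ± 0.48 for Drp2 (adjusted p = 0.495).

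In female paw 3 of the 17 other sheath genes were called on day 2, beside 29% of all genes, and 4 on day 6, beside 29.5%. On day 2, 2 rose, Cadm4 (1.00 ± 0.23) and the deacetylase Sirt2 (0.25 ± 0.08), and Gldn fell by 0.60 ± 0.16. On day 6, Cadm4 rose by 0.77 ± 0.23 and 3 fell, Dag1 by 0.66 ± 0.10, Gldn by 0.85 ± 0.16 and Dmd, which muscle also makes, by 1.39 ± 0.45. Nrg1, from the list of regulators, fell by 1.5 ± 0.35 on day 2 and by 2.02 ± 0.37 on day 6 (adjusted p = 0.00366 and 0.00038). The other regulators in paw are not given here, so Nrg1 does not stand for that list. Median differences from vehicle on days 2 and 6 were 0.33 and -0.41 log2 over the 8 genes and 0.25 and -0.31 over the 17, beside 0.04 and -0.02 over all genes, and over the 15 muscle markers 1.64 and -1.14.

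The genes most like the mean profile of the 8 were sought by the root-mean-square difference of centred log2 CPM. In DRG, over 15 libraries and 10662 genes with a mean of at least 3 log2 CPM, the closest 5 were Plekhb1 (0.041), Aif1l (0.049), Pacs2 (0.060), Tgfa (0.063) and Gpr157 (0.066). The profile itself ran from -0.21 to 0.22. Of the 8, Mbp was nearest to it (0.045), followed by Pllp (0.086), Cldn19 (0.094) and Pmp22 (0.108), while Egr2 was farthest (0.345). In paw, over 24 libraries and 10388 genes, the closest were Gatm (0.159), Ric8b (0.174), Aatk (0.181), Atp5c1 (0.186) and Kif1a (0.186). The paw profile ran more widely, from -0.70 to 0.88. The difference grows with that spread, so its size in paw cannot be set directly against that in DRG. There too Mbp was nearest (0.116) and Egr2 farthest (0.637). Within each tissue the libraries came from both library sets and differed in depth, so the profiles run across the sets. The differences are a description with no test.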

How the data were processed

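Poly(A) RNA gave 15 DRG and 24 paw libraries, made with a stranded kit and read over 50 bases from one end, per the labels' protocols. The submitters' processing notes name bcl2fastq, TopHat2, HTSeq and the mouse build mm9. Versions, annotation and strand setting were not given in the sources used here. The deposited values are the authors' raw counts per gene, 1 file a library. Each file's closing summary lines, which belong to no gene, entered neither library sizes nor tests. Reads outside genes, counted there, were 13.91% to 21.55% of those uniquely placed.

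CPM is the count divided by all gene reads of the library, on the usual scale. DRG and paw had separate fits in edgeR 4.0.16 (R 4.3.3; TMM factors 0.98 to 1.02 in DRG and 0.94 to 1.08 in paw, filterByExpr, 1 coefficient a group, quasi-likelihood F test), with Benjamini-Hochberg adjustment over 15577 genes in DRG and 15346 in paw and a threshold of 0.05. All 8 genes passed the filter in both tissues. SE is the log2 change over the root of F. Common biological variation (coefficient) came to 0.133 in DRG and 0.244 in paw, on 10 and 16 residual degrees of freedom. No 2 replicates of a group, the pairs compared, were as close as 2 samplings of 1 (lowest chi-square per degree of freedom 4.99 in DRG and 8.58 in paw). The fit was tested on simulated data.

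The 8 genes and all lists were chosen with earlier results of these data known. From each other list at most 4 called genes with the smallest p were named, and a list level is a mean of log2(CPM + 0.5). Replicate numbers were taken to pair samples where every same-number correlation was over 0.1. In DRG these were male day 6 against vehicle (0.10 to 0.15) and against male day 2 (0.12 to 0.30). In paw they were, against vehicle, female day 2 (0.16 to 0.59), male day 6 (0.25 to 0.64) and male day 15 (0.19 to 0.55). Elsewhere some correlations were negative, at -0.77 to -0.30 for paw female day 6 against vehicle. Not every other contrast held a negative one (0.06 to 0.75 for paw female day 26 against vehicle). The rule therefore cannot show that samples were paired. This pairing rests on the values alone; the labels leave the numbers unexplained. The alternatives were DESeq2 1.42.0, size factors by relative log expression, no filter, a replicate block, the muscle level as a covariate, only the compared groups, and each library left out; the contrasts of males with females were added after the data were seen. Promoter windows came from RefSeq and overlaps from GENCODE M21; no coordinate of the files' build was used.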

Additional observations from a re-analysis of the deposited data

Results flagged for a closer look

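Males and females of the same day were set against each other as edgeR's log2 change of males against females, contrasts chosen after the data were seen. A call there is a difference between paclitaxel males and paclitaxel females of that day. The vehicle libraries cancel in it, and without vehicle males a difference in response cannot be told apart from one present before treatment. Since all paclitaxel females are in one library set and all males in the other, sex cannot be told apart from library set in any of them.

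In DRG on day 2, 6 of 8 genes were higher in males, beside 48.9% of all genes called in either direction. Drp2 differed by 0.85, Pmp22 by 0.51 and Mbp by 0.31. Egr2 (0.55), Cldn19 (0.25) and Pllp (0.22) were called too, and each of these 3 calls was lost under some of the alternatives. On day 6, 3 were called beside 39.9%: Egr2 was higher in males by 0.57, while Mag differed by -0.42 and Prx by -0.33. Egr2 fell short when any of 5 of the 6 libraries was left out, all but replicate 3 of male day 6.

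In paw on day 2, 3 of 8 were called beside 31.2%. Egr2 was higher in males by 1.18, and Pllp (-1.25) and Prx (-1.07) were lower. Without replicate 3 of female day 2, the paw library with the most muscle, Pllp and Prx were not called (-0.69 and -0.72, adjusted p = 0.145 and 0.112), and without replicate 2 or 3 of male day 2 Prx was not (adjusted p = 0.0567 and 0.0593). On day 6, Egr2 alone was called, beside 37.3%, higher in males by 1.16. The Egr2 differences in paw were called under all 12 alternatives on both days.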

How the results depend on the processing

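Over 24 comparisons and 8 genes, 2400 values were computed under the alternatives, of which 2288 stayed on their side of the threshold, 72 lost a call and 40 gained one. No called value changed sign, while 112 uncalled ones did. Depth limits Mag, Pllp and Cldn19 in paw most, and 3 libraries a group limit every contrast. The causes of the changes below were not tested. The shares of all genes called under each alternative are not set beside them here.

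The number of the 8 genes called moved as follows. With DESeq2 it was 4 for DRG male day 6 against day 2 (0 in edgeR), 2 for paw female day 2 against vehicle (1) and 2 for paw female day 6 against day 2 (0). With only the compared groups it was 1 for DRG male day 6 against vehicle (0), 0 for paw female day 2 (1) and 1 for paw female day 6 (2) against vehicle, and for paw males against females 1 on day 2 (3) and 2 on day 6 (1). Relative-log-expression factors gave 0 for paw female day 2 against vehicle, and no filter gave 0 for both paw female day 2 and paw female day 6. With the muscle covariate it was 0 for paw female day 2, 2 for day 16 (0) and 3 for day 26 (1) against vehicle, and 2 for paw males against females on day 6. The replicate block gave 1 for paw female day 6 against vehicle (2) and 1 for paw male day 2 against vehicle (0). Neither met the rule for pairing. The block left the count at 1 for paw female day 2 with another gene called, and changed no other count by over 1.5 times.

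Leaving out 1 library gave, in DRG, 5 to 6 called for female day 2 and 4 to 5 for female day 6 against vehicle, 0 to 1 for female day 6 against day 2, 0 to 2 for the male less female change, 3 to 6 for males against females on day 2 and 2 to 3 on day 6. In paw it gave 0 to 2 for female days 2 and 6, 0 to 1 for female day 26 and 0 to 0 for male day 15 against vehicle, 0 to 3 for female day 6 against day 2, 1 to 4 for males against females on day 2 and 1 to 2 on day 6.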
